A study of Mus musculus with 12 samples.

Results

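The 8 genes described here are Atf3, Smad1, Gadd45a, Sprr1a, Gap43, Stmn2, Csf1 and Vgf, which are known from the response of sensory neurons to nerve injury and from axon regeneration. They were chosen by symbol, and each has 1 row among the 24490 genes with expression values from mouse dorsal root ganglion (DRG). The DRG holds the cell bodies of peripheral sensory neurons together with satellite glia, Schwann cells, fibroblasts, macrophages and vessels. The 12 RNA-seq samples fall into 3 groups of 4: intact DRG, dissociated DRG that was not sorted (unsorted) and DRG neurons enriched by magnetic cell sorting (MACS-sorted). All mice were adult C57Bl/6, had no nerve injury or treatment named in the labels, and gave ganglia from all spinal levels. An intact sample was frozen ganglia of 1 mouse. An unsorted sample was cells of 2 pooled mice after 30 min in dispase, collagenase and DNAse at 37°C. A MACS-sorted sample was cells of 8 pooled mice after the same incubation, from which antibody-labelled non-neuronal cells were retained on a column. Values are FPKM (fragments per kilobase of transcript, scaled to the mapped fragments of the sample), and each ± is a standard deviation of the 4 samples in that group. The study describes the 4 samples of a group as biological replicates.

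When the axon of a sensory neuron is cut, the cell body is known to switch on a regeneration programme in which stress-activated transcription factors such as Atf3 and Jun act early and growth genes follow. Freeing DRG neurons from the ganglion also severs their axons. Some of the 8 genes are classic markers of the injured state that are low in uninjured neurons (Atf3, Sprr1a, Csf1), whereas others are already abundant in uninjured sensory neurons (Gap43, Stmn2, Vgf).

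Several libraries stood apart. The MACS-sorted replicates differed from each other by 0.493 to 0.812 (root-mean-square difference in log2 FPKM over 12283 genes), with replicates 2 and 4 the farthest apart of any pair within a group. Intact replicate 1 differed from the other intact replicates by 0.705 to 0.723, whereas those 3 differed from each other by 0.352 to 0.378. The unsorted replicates differed by 0.335 to 0.426, and replicates 1 and 2 were the closest pair of any group. Genes marking red blood cells took 0.558% to 5.21% of the summed FPKM in MACS-sorted samples and at most 0.219% in the others. The estimated depth was between 13600000 and 19400000 fragments per sample. Pan-neuronal markers passed the test as higher in MACS-sorted than in unsorted samples for 5 of 10 genes and as lower for 3. Of 10 markers of small-diameter nociceptors 9 were higher, and all 8 markers of large-diameter neurons were lower, as were all 7 of satellite glia. Over all genes tested 18.8% passed as higher and 27.7% as lower. In bulk samples such as these, fewer cells of a type and less RNA per cell cannot be told apart.

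The promoters of 2 of the members that are low in intact ganglia, Atf3 and Sprr1a, are shown because they carry matches to motifs of the AP-1 and ATF families, to which Atf3, Jun and Fos belong. Both were taken from RefSeq on GRCm38.p6, from 250 bases before to 50 bases after the start of the gene, as was done for all 5 members with an entry (Atf3, Gadd45a, Sprr1a, Csf1 and Smad1). Vgf, Gap43 and Stmn2 had no entry. The motifs searched on both strands were TGAGTCA for AP-1, TGACGTCA for the cAMP response element and TGATGNAA for the composite site of C/EBP and ATF factors. TATAAA was searched for the TATA box. Capitals in the sequences mark the matches.
Atf3 promoter, chr1:191183284-191183583, minus strand: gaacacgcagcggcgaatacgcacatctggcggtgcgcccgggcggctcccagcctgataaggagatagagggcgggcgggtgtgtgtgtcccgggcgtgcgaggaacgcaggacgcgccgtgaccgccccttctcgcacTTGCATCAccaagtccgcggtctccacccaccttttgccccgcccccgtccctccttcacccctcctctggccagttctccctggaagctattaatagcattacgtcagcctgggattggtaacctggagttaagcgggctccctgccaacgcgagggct
Sprr1a promoter, chr3:92485832-92486131, minus strand: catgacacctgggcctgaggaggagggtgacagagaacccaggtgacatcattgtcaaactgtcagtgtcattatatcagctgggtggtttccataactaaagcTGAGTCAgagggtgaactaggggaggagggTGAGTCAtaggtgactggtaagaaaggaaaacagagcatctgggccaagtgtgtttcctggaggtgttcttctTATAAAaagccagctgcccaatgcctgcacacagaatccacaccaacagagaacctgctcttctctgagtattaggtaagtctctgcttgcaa
The Sprr1a window held TGAGTCA in 2 places, beginning 146 and 116 bases before the start, and TATAAA 43 bases before it. The Atf3 window held TGATGNAA on the reverse strand, 110 bases before the start. Among 32851 promoter windows of this length, 5.20% held TGAGTCA, 0.222% held it at least 2 times, 3.97% held TGATGNAA, 13.6% held TATAAA and 1.79% held TGACGTCA. No match was found in the windows of Gadd45a, Csf1 and Smad1. These are matches of letters, and binding was not measured.

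The order of the members by level was much the same in every sample. Stmn2 was the highest in all 12 samples, Gap43 the next and Vgf the third. Stmn2, a tubulin-binding regulator of microtubules in growing neurites, ranked between 19 and 26 among all genes. Gadd45a and Smad1 lay close together below Vgf in intact and unsorted DRG, with 14.8 ± 2.59 and 14.3 ± 1.19 FPKM in intact samples (SD, n = 4), values that overlapped. Csf1 and Atf3 followed at 3.66 ± 0.203 and 2.97 ± 0.759 FPKM in intact DRG, where their ranges also overlapped. Sprr1a was the lowest in intact and unsorted DRG, at 0.316 ± 0.276 FPKM in intact samples. Atf3 changed its place most, from place 6 or 7 in intact DRG to place 4 in unsorted replicates 3 and 4. Sprr1a moved above Csf1 in 3 of the 4 MACS-sorted samples.

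**Figure D1:**
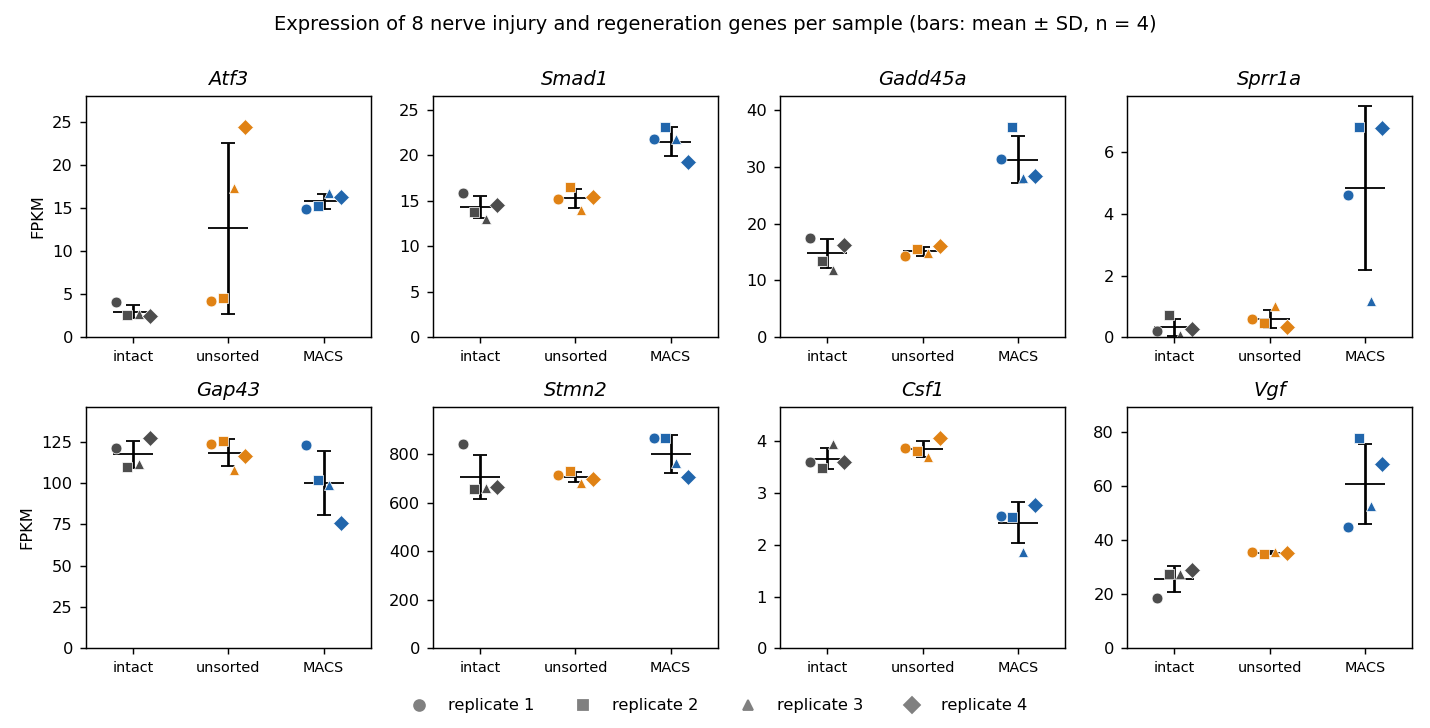
FPKM of the 8 genes in each sample (vertical axis, linear and from 0), by group, with the symbol giving the replicate and bars giving the mean ± SD of 4 samples. Unsorted samples split for Atf3 into 2 low and 2 high values, Gadd45a, Smad1, Sprr1a and Vgf were highest in MACS-sorted samples, and Gap43 and Stmn2 overlapped between groups.

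Groups were compared by limma on log2(FPKM + 0.1), two-sided, with Benjamini-Hochberg adjustment over all genes tested, and a log2-fold change below is a difference on that scale with its standard error (SE). A gene was called when its adjusted p was under 0.05, the log2 ratio of its group means was beyond 0.5 and the higher group averaged more than 5 FPKM. The unsorted-intact comparison asks what differed after dissociation. It also holds the differences in fibroblast, macrophage and endothelial markers given below, and sets pools of mice against single mice. None of the 7 members tested was called (0 of 7), where 7.04% of 12392 genes were (4.29% as higher). At an adjusted p under 0.05 alone 1 of the 7 passed, Vgf, against 22.5% of all genes. The MACS-unsorted comparison asks what differed after the sorting step, and it also holds the differences in neuron-type markers and red blood cell genes given above. Gadd45a and Vgf were called higher, 2 of 8 against 8.15% of 12038 genes called higher and 20.7% called in either direction. By the adjusted p alone 5 of 8 passed, against 46.5%, and Csf1 was the 1 that passed as lower, against 27.7%. The comparison of MACS-sorted with intact samples, which shares samples with both others, called Atf3, Gadd45a, Vgf and Smad1 higher, 4 of 8 against 7.54% of 12234 genes called higher and 18.3% called in either direction. By the adjusted p alone 6 of 8 passed, against 34.8%, with Csf1 again the 1 that was lower, against 20.6%. No member was called lower in any of the 3 comparisons, and between unsorted and intact DRG none passed the adjusted p as lower, against 7.79% of genes. The groups did not overlap for 2 of 7 members tested between unsorted and intact samples (32.8% of all genes), for 5 of 8 between MACS-sorted and unsorted (46.2%, with 1 of the 5 lower against 27.8%) and for 6 of 8 between MACS-sorted and intact (37.5%, with 1 of the 6 lower against 21.9%). The median log2-fold change of the members was 0.07, 0.60 and 0.83 in these comparisons, and over all genes tested it was 0.01, -0.04 and -0.04. An exact two-sided permutation test of 4 against 4 samples gave 0.0286, the smallest p it allows, for every non-overlapping pair, or 0.0527 after adjustment over 24 tests.

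**Figure D2:**
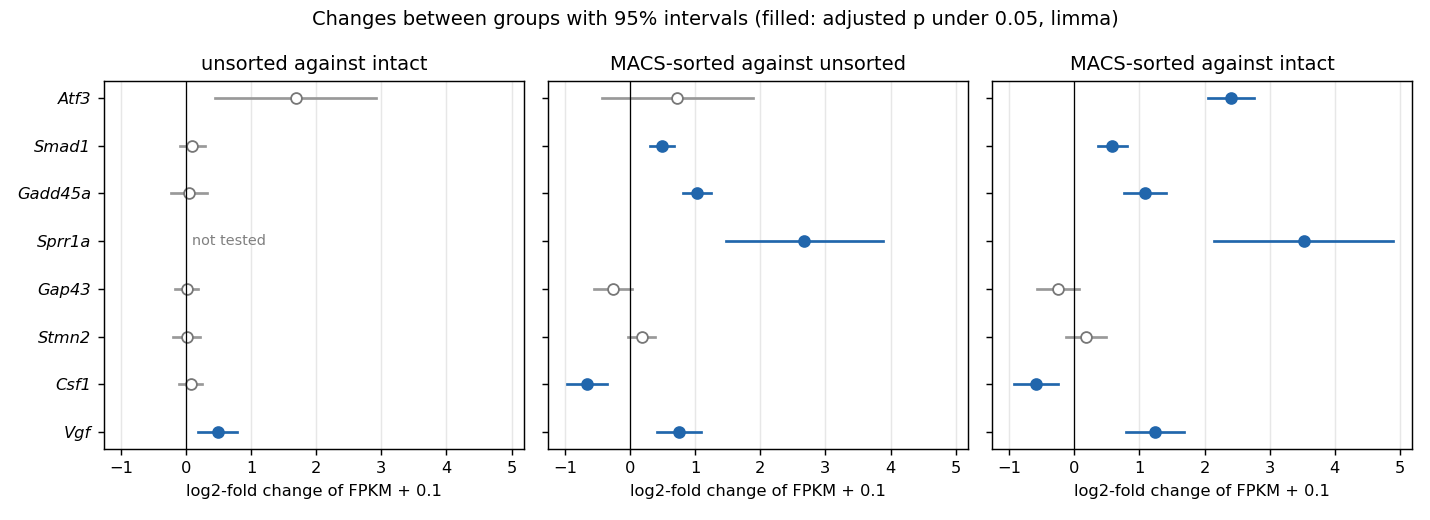
Log2-fold change of each gene (horizontal axis, FPKM + 0.1) with its 95% interval from limma in the 3 comparisons, filled where the adjusted p was under 0.05. The intervals of Atf3 are wider where unsorted samples enter than between MACS-sorted and intact samples, where its estimate is 2.40. Those of Sprr1a are wide in both comparisons in which it was tested.

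Atf3, a transcription factor of the ATF/CREB family induced in axotomised sensory neurons, lies on chromosome 1 of mm10 from 191170297 to 191183333. It was expressed at 4.09, 2.59, 2.71 and 2.47 FPKM in intact replicates 1 to 4. In unsorted DRG it stood at 4.22, 4.58, 17.4 and 24.4 FPKM, so that replicates 1 and 2 were barely above the highest intact sample and replicates 3 and 4 were far above it. In MACS-sorted samples it was 14.9, 15.3, 16.8 and 16.3 FPKM, all of them between unsorted replicates 2 and 3 and with a coefficient of variation of 5.55%, against 78.7% in unsorted DRG. Every MACS-sorted sample exceeded every intact sample, with a 5.33-fold higher mean, and the log2-fold change was 2.40 (SE 0.16, adjusted p = 8.7e-06). Between unsorted and intact DRG the groups did not overlap either and the means differed 4.27-fold, but the log2-fold change of 1.68 (SE 0.55) missed the threshold, with an adjusted p of 0.0555. That outcome turned on single libraries: the adjusted p was 0.0337 without intact replicate 1, 0.0385 without unsorted replicate 1 and 0.0443 without unsorted replicate 2, and Atf3 was then called. Without any one of the other libraries it ranged up to 0.140, and with unsorted replicates 1 and 2 averaged into 1 sample it was 0.0410. MACS-sorted and unsorted samples overlapped, at a log2-fold change of 0.72 with a 95% interval from -0.44 to 1.88 (adjusted p = 0.282).

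The split of the unsorted samples for Atf3 was shared with genes on the early-response list. That list holds genes such as Fos that are transcribed within minutes of a stimulus, and also stress-response genes such as Ddit3. Both unsorted replicates 3 and 4 exceeded both replicates 1 and 2 in 17 of the 18 early-response genes, by more than 1.5-fold in 13 of them. Over the 12283 genes that averaged 1 FPKM or more the same order held for 17.1%, and for 0.431% by more than 1.5-fold. Among the 8 members Atf3 alone showed it, 3.80-fold between the closest values. Fos, the partner of Jun in AP-1, was listed at 55.6, 57.7, 191 and 314 FPKM in unsorted replicates 1 to 4 and at 2.07 to 4.19 FPKM in intact DRG. Jun itself, which pairs with Atf3 in injured neurons, was at 58.1, 60.8, 121 and 144 FPKM in unsorted DRG and at 24.5 to 27.3 FPKM in intact DRG. Its log2-fold change between unsorted and intact samples was 1.77 (adjusted p = 0.00477), and it was called. The 4 samples had this order for none of the markers of satellite glia, Schwann cells, fibroblasts, macrophages, endothelium and pericytes. It held for 3 of 10 pan-neuronal markers, 3 of 10 small-diameter nociceptor markers and 5 of 8 markers of large-diameter neurons. None of these did so by more than 1.5-fold. Summed markers of satellite glia, fibroblasts, macrophages, endothelium and pericytes were lower in replicates 3 and 4 than in 1 and 2. The Schwann cell sum was lower only in replicate 3. Fibroblast sums were 337, 328, 168 and 223 FPKM in unsorted replicates 1 to 4. The part of these cell types in the split was not tested.

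In MACS-sorted samples 13 of the 18 early-response genes had an estimate below that of unsorted DRG and 5 above it. Atf3 was also above it, at 0.72, and did not pass the test (limma adjusted p = 0.282). The mean of Fos was 39.5 FPKM after sorting and 155 FPKM before it, and Fos was called lower, with a log2-fold change of -1.67 (adjusted p = 0.0354). Jun was at 36.6 to 56.1 FPKM in MACS-sorted samples, below all unsorted ones, and was also called lower, at -0.84 (adjusted p = 0.0401), while remaining above intact DRG by 0.93 (adjusted p = 7.0e-04). By the adjusted p 6 of the 18 early-response genes fell and 4 rose between unsorted and MACS-sorted samples. Over all genes tested 27.7% fell and 18.8% rose. The median log2-fold change of the 18 genes was -0.90. Egr2, Nr4a1, Egr1 and Fos had the largest falls among those called (-4.31, -2.84, -1.78 and -1.67), and Ddit3, a transcription factor of the stress response, and Ier3 were called higher (1.02 and 0.69). Against intact DRG 13 of 17 early-response genes tested were higher in MACS-sorted samples by the adjusted p and 1, Egr2, was lower. Over all genes these shares were 14.1% and 20.6%. The genes most like Atf3 in pattern over the 12 samples were Btg2, Dusp1 and Junb, at root-mean-square differences of 0.59, 0.60 and 0.61 on the log2 scale. These are large distances beside those of the other members below, with the exception of Sprr1a. By this measure, which also grows with the size of a gene's changes, no gene came close to Atf3.

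**Figure D3:**
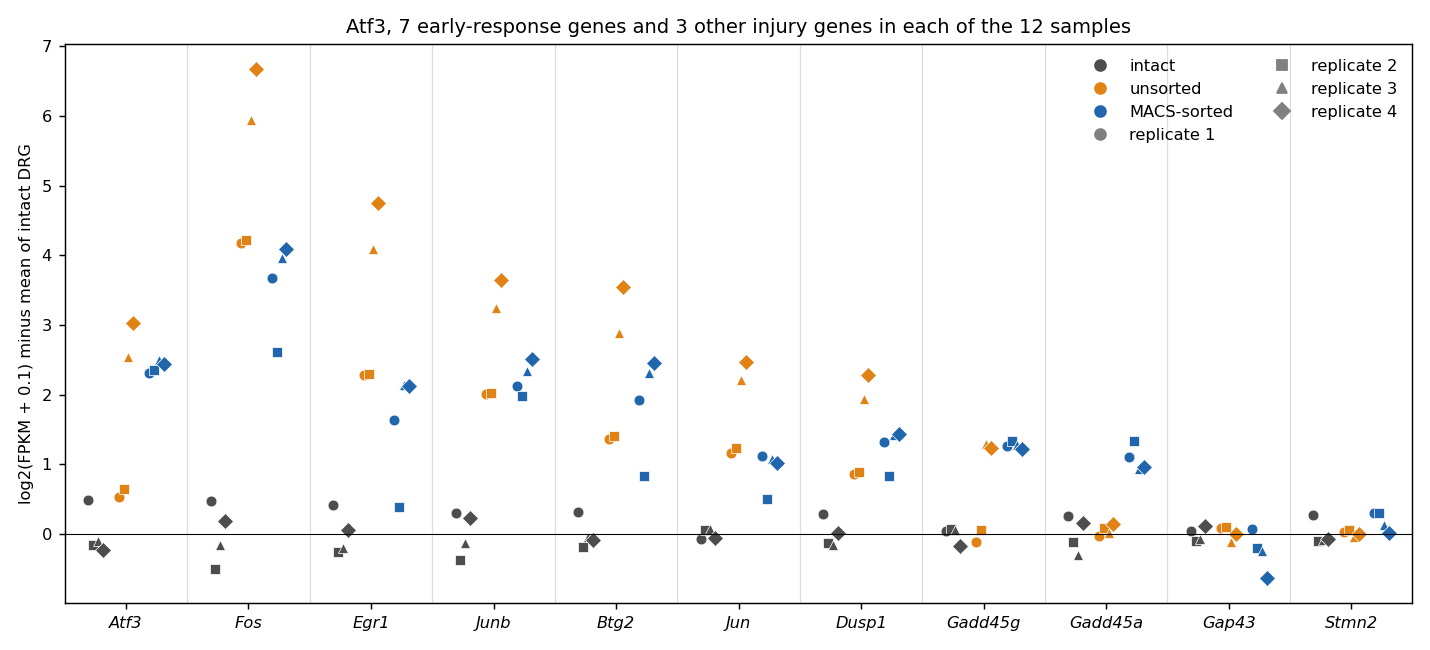
Expression of Atf3, Jun, early-response genes (Fos, Egr1, Junb, Btg2, Dusp1 and Gadd45g), Gadd45a, Gap43 and Stmn2 in each of the 12 samples. Values are log2(FPKM + 0.1) minus the mean of intact DRG (vertical axis). The title in the figure counts Jun with the early-response genes. Colour gives the group and symbol the replicate. Unsorted replicates 3 and 4 (triangle, diamond) lie above 1 and 2 for Atf3, Jun and all the early-response genes shown. Gap43 and Stmn2 stay near 0.

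Smad1, which carries signals of bone morphogenetic protein (BMP) receptors to the nucleus and promotes axon growth of DRG neurons, lies on chromosome 8 from 79338398 to 79399468. It stood at 15.8, 13.8, 13.0 and 14.5 FPKM in intact DRG. Its values were 15.2, 16.5, 13.9 and 15.5 FPKM in unsorted DRG, within or just above the intact range. In MACS-sorted samples they were 21.8, 23.1, 21.7 and 19.3 FPKM, above every sample of the other groups. The log2-fold change was 0.59 (SE 0.097, adjusted p = 0.00136) between MACS-sorted and intact DRG. Between MACS-sorted and unsorted samples it was 0.49 (SE 0.080, adjusted p = 8.1e-04), which passed the test, while the log2 ratio of means, also 0.49, fell just under the limit of 0.5. Smad1 was called without unsorted replicate 2 or MACS-sorted replicate 4, when that ratio was 0.53 or 0.54. Unsorted and intact samples differed by 0.10, with a 95% interval from -0.09 to 0.29.

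Several other genes of the BMP pathway moved the opposite way to Smad1. Of 14 tested between MACS-sorted and unsorted samples 7 were lower and 2 higher by the adjusted p, against 27.7% and 18.8% of all genes. Their median log2-fold change was -0.30. Smad5 and Smad9, which serve the same receptors as Smad1, were called lower at -0.61 and -0.93, and Id3, a transcriptional target of BMP signals, at -1.55. Smad4, the shared partner, averaged 17.9 against 15.4 FPKM and did not pass (adjusted p = 0.217). Nog, the secreted BMP antagonist noggin, was called higher at 1.10. Between unsorted and intact DRG 2 of 18 tested rose and 2 fell by the adjusted p, against 14.8% and 7.79% of all genes. Smad9 was the one called, at 0.72. The 3 genes most like Smad1 in pattern were Rbm15b, Zcchc18 and Stt3b, at root-mean-square differences of 0.061, 0.065 and 0.077.

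Gadd45a, a stress-inducible protein that interacts with cell cycle and DNA repair factors, lies on chromosome 6 from 67035096 to 67037407, with the antisense gene E230016M11Rik at the same place. That gene was listed at 0 in 11 of the samples. Gadd45a stood at 17.5, 13.5, 11.8 and 16.3 FPKM in intact and at 14.3, 15.4, 14.7 and 16.1 FPKM in unsorted DRG, and all 4 unsorted values lay inside the intact range. In MACS-sorted samples it was 31.4, 37.0, 28.1 and 28.4 FPKM, about 2-fold above both other groups without overlap. The log2-fold change was 1.03 (SE 0.095, adjusted p = 2.4e-05) against unsorted and 1.08 (SE 0.14, adjusted p = 3.7e-04) against intact samples. Unsorted against intact DRG gave 0.05, with a 95% interval from -0.22 to 0.33.

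Its relatives Gadd45b and Gadd45g had other patterns. Gadd45g was listed at 8.34, 9.45, 22.3 and 21.4 FPKM in unsorted replicates 1 to 4, the split seen for Atf3, at 8.06 to 9.55 FPKM in intact DRG and at 21.3 to 23.0 FPKM in MACS-sorted samples. It was called higher in MACS-sorted than in intact samples (1.27, adjusted p = 1.1e-05). Gadd45b was lower after sorting, at a mean of 3.81 against 7.48 FPKM, and was called (-0.95, adjusted p = 0.0464). The genes most like Gadd45a were Mesdc1, Tlx3 and Ass1, at root-mean-square differences of 0.094, 0.13 and 0.13. Tlx3, a homeobox transcription factor of sensory neurons, averaged 42.5 FPKM over the 12 samples.

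Sprr1a, a small proline-rich protein of the skin's cornified envelope that injured neurons also make, lies on chromosome 3 from 92483954 to 92485881. It was 0.200, 0.715, 0.0838 and 0.266 FPKM in intact DRG and 0.576, 0.450, 1.01 and 0.319 FPKM in unsorted DRG. In MACS-sorted samples it was 4.63, 6.82, 1.17 and 6.78 FPKM, and replicate 3 came close to the highest unsorted sample. By the estimated depth these values correspond to about 1.1 to 8.6 fragments per intact sample, 3.3 to 10.8 per unsorted sample and 13.2 to 70.2 per MACS-sorted sample, so the lower groups rest on few fragments. The log2-fold change was 2.67 (SE 0.54, adjusted p = 0.00269) against unsorted and 3.52 (SE 0.61, adjusted p = 0.0018) against intact DRG, and the pseudocount of 0.1 understates both. Sprr1a was not called because the MACS-sorted mean of 4.85 FPKM was under 5. Without MACS-sorted replicate 3 it was called in both comparisons, at 3.24 and 4.09. Its mean over unsorted and intact samples was below the filter of 1 FPKM. With no filter the difference between those groups was 0.85, with a 95% interval from -0.20 to 1.89 and an adjusted p of 0.246.

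No other gene of the cornified envelope accompanied Sprr1a past the filter. Of 10 small proline-rich and cornified envelope genes none averaged 1 FPKM in any comparison, and Sprr1b was listed at 0 in all 12 samples. The genes most like Sprr1a were C1ql4, Mrgpra3 and Cdca8, at distances of 0.88, 0.94 and 0.95, which are far. Mrgpra3, an itch receptor of a nociceptor subset, averaged 23.9 FPKM.

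Gap43, a membrane protein of growth cones used to mark regenerating axons, lies on chromosome 16 from 42248561 to 42340651. It was 121, 109, 112 and 127 FPKM in intact DRG, 124, 125, 108 and 117 FPKM in unsorted DRG and 123, 102, 98.9 and 75.9 FPKM in MACS-sorted samples. The groups overlapped throughout, and the lowest value was that of MACS-sorted replicate 4. The log2-fold change was 0.01 (95% interval -0.16 to 0.19) between unsorted and intact samples, -0.26 (-0.56 to 0.03, adjusted p = 0.127) between MACS-sorted and unsorted and -0.25 (-0.57 to 0.07, adjusted p = 0.203) between MACS-sorted and intact samples. Leaving out MACS-sorted replicate 1 moved the comparison with unsorted samples to -0.37 with an adjusted p of 0.0281. The genes most like Gap43 were Pvrl3, P2rx4 and Smurf2, at distances of 0.068, 0.089 and 0.096.

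Stmn2, on chromosome 3 from 8509527 to 8561604, was 843, 655, 659 and 664 FPKM in intact DRG and 714, 730, 682 and 697 FPKM in unsorted DRG. In MACS-sorted samples it was 864, 865, 764 and 705 FPKM, a range that took in values of both other groups. Intact replicate 1 was thus close to the upper MACS-sorted samples, and the other intact samples were below all unsorted ones. None of the 3 comparisons passed the test, with log2-fold changes of 0.01 (95% interval -0.20 to 0.22), 0.17 (-0.03 to 0.38) and 0.18 (-0.13 to 0.49) for unsorted against intact, MACS-sorted against unsorted and MACS-sorted against intact samples. Without MACS-sorted replicate 4 the second was 0.23 with an adjusted p of 0.0173. The genes most like Stmn2 were Set, Emd and Ppp1ca, each at a distance of 0.061.

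Growth cone and axon growth genes other than these were divided. Of 18 tested, 8 rose and 1 fell from intact to unsorted DRG by the adjusted p, against 14.8% and 7.79% of all genes. Map1b, Ncam1 and L1cam were called higher (1.03, 0.60 and 0.54). Between unsorted and MACS-sorted samples 7 rose and 6 fell, against 18.8% and 27.7% of all genes. The called ones were Tubb2b, Basp1 and Stmn1 on the higher side (1.09, 0.81 and 0.60) and Marcksl1, Map1b and Marcks on the lower (-1.32, -1.22 and -0.58). Basp1 and Marcks, membrane proteins of the growth cone that act like Gap43, thus went in opposite directions. Of the close relatives of Stmn2, Stmn3 averaged 538 against 573 FPKM and Stmn4 10.6 against 10.2 FPKM, and neither passed (adjusted p = 0.431 and 0.967).

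Csf1, a secreted growth factor that injured sensory neurons release and that acts on macrophages and microglia, lies on chromosome 3 from 107741048 to 107760469. It was 3.61, 3.48, 3.95 and 3.61 FPKM in intact DRG and 3.88, 3.80, 3.69 and 4.06 FPKM in unsorted DRG, closely similar levels. In MACS-sorted samples it was 2.55, 2.53, 1.87 and 2.76 FPKM, below every other sample. Csf1 was the only member lower in MACS-sorted samples by the test, with a log2-fold change of -0.66 (SE 0.14, adjusted p = 0.00341) against unsorted and -0.59 (SE 0.15, adjusted p = 0.0145) against intact DRG. It could not be called at a level below 5 FPKM. Without intact replicate 3 the second comparison no longer passed (adjusted p = 0.0525). Unsorted and intact samples differed by 0.07, with a 95% interval from -0.10 to 0.25.

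The partners of Csf1 were also lower after sorting. Csf1r, its receptor on macrophages, was 4.37 to 7.30 FPKM in intact DRG, 2.17 to 4.03 FPKM in unsorted DRG and 0 to 0.201 FPKM in MACS-sorted samples. Il34, the other ligand of that receptor, was at 10.5 to 17.5 FPKM in intact DRG, 10.6 to 11.5 FPKM in unsorted DRG and 1.66 to 3.47 FPKM in MACS-sorted samples, a log2-fold change of -2.13 (adjusted p = 4.7e-05) from unsorted to MACS-sorted samples. All 3 Csf1 pathway genes tested were lower by the adjusted p in that comparison, against 27.7% of all genes. The summed FPKM of 7 macrophage markers was 32.4 to 66.1 for intact DRG, 10.3 to 21.0 for unsorted DRG and 0.697 to 2.82 after sorting, where Csf1r, C1qa, C1qb and Cx3cr1 were under 0.5 FPKM in every sample. The sum for 6 fibroblast markers was 496 to 942, 168 to 337 and 7.62 to 32.4 FPKM, and that for 6 endothelial markers was 20.8 to 24.5, 40.5 to 52.7 and 12.1 to 71.6 FPKM. By the adjusted p 6 of 7 macrophage and 6 of 6 fibroblast markers fell from intact to unsorted DRG, against 7.79% of all genes. There 6 of 6 endothelial markers rose, against 14.8%, and Csf1 did not pass. The 3 genes most like Csf1 were Ptcd3, Pdgfrb and Dnpep (0.094, 0.12 and 0.12). Pdgfrb, a receptor of pericytes and fibroblasts, had a log2-fold change of -0.56 from unsorted to MACS-sorted samples. The 5 pericyte markers, Pdgfrb among them, had a median of -4.00 there, with 4 lower and 1 higher by the adjusted p. The part of non-neuronal cells in the level of Csf1 was not tested.

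Vgf, a precursor of neurosecretory peptides that neurotrophins and injury induce, lies on chromosome 5 from 137030295 to 137033351. It was 18.5, 27.6, 27.3 and 28.8 FPKM in intact DRG, and 35.8, 34.8, 35.8 and 35.3 FPKM in unsorted DRG. In MACS-sorted samples it was 44.8, 77.5, 52.6 and 68.2 FPKM. Vgf was the only member with 3 groups that did not overlap, rising in steps from intact through unsorted to MACS-sorted samples, and the unsorted replicates agreed to a coefficient of variation of 1.33%. The log2-fold change from intact to unsorted DRG was 0.49 (SE 0.13, adjusted p = 0.0299), and it was not called because the log2 ratio of means was 0.47. It was called without intact replicate 2, 3 or 4 (log2 ratios of 0.51, 0.50 and 0.53), and it no longer passed the test without any 1 of the unsorted replicates (adjusted p from 0.0674 to 0.0722) although its estimate stayed between 0.48 and 0.50. Without intact replicate 1, the lowest sample, the log2-fold change was 0.34 with an adjusted p of 7.3e-04. MACS-sorted samples were higher than unsorted by 0.75 (SE 0.15, adjusted p = 0.00277) and higher than intact by 1.24 (SE 0.20, adjusted p = 0.00109).

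Vgf is often counted among the granins, a family of dense-core vesicle proteins, whose other members did not all move with it. Between unsorted and intact DRG 6 of the 11 granin and prohormone processing genes passed as higher and none as lower. Over all genes 14.8% and 7.79% did. Chgb and Chga were called higher (0.84 and 0.71), whereas Scg2 was at 0.07 (adjusted p = 0.503) and Scg5 at -0.19 (adjusted p = 0.548). From unsorted to MACS-sorted samples Chgb and Chga were called lower (-0.92 and -0.74), as was Pcsk1, a prohormone-cleaving protease (-1.95). Scg3 was called higher (0.96), as Vgf was. By the adjusted p 3 of the 11 passed in each direction, against 18.8% of all genes as higher and 27.7% as lower. Scg2 averaged 133 against 138 FPKM (adjusted p = 0.697). The genes most like Vgf were Tmem132e, Slit1 and Tox3, at distances of 0.10, 0.14 and 0.15.

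A list of 31 other injury-induced genes of sensory neurons was read beside the members. Of 22 tested between unsorted and intact DRG 6 were higher and 1 lower by the adjusted p, against 14.8% and 7.79% of all genes. Their median log2-fold change was 0.06. The called ones were Socs3, a suppressor of cytokine signals, Jun and the heat shock protein gene Hspb1, at 2.83, 1.77 and 0.59. Socs3 had the split of Atf3, with 11.2, 12.4, 38.6 and 56.1 FPKM in unsorted replicates 1 to 4. Between MACS-sorted and unsorted samples 11 of 24 were higher and 4 lower, with a median of 0.39. Over all genes 18.8% were higher and 27.7% lower. Of those called, Nts, Plaur, Cd44 and Klf7 led the rises (1.56, 1.49, 0.94 and 0.59), and Jun and Klf6 were the 2 that fell (-0.84 and -0.61). Against intact DRG 14 of 24 were higher and 1 lower, where 14.1% and 20.6% of all genes were. The called ones with the largest rises were Socs3, Plaur, Cd44 and Jun (1.86, 1.27, 1.04 and 0.93). Jun was counted on this list and not among the early-response genes.

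**Figure D4:**
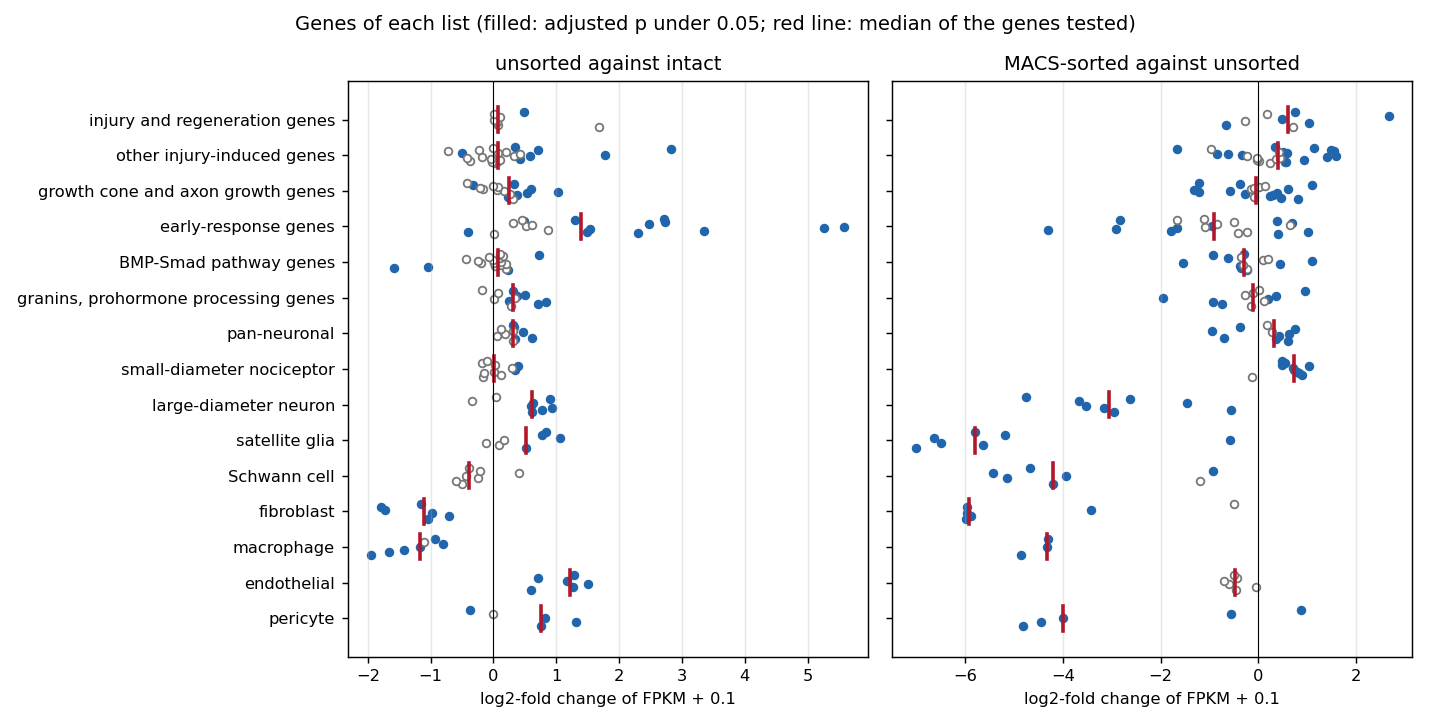
Log2-fold changes (horizontal axis, FPKM + 0.1) of single genes on each list, between unsorted and intact samples and between MACS-sorted and unsorted samples, filled where the adjusted p was under 0.05 and with a red line at the median of the genes tested. Early-response genes lie mostly on the right in the first panel and mostly on the left in the second (medians 1.39 and -0.90). The 8 genes have medians of 0.07 and 0.60. After sorting the medians of satellite glia, Schwann cell, fibroblast and macrophage markers lie far to the left (-5.81, -4.21, -5.92 and -4.32). Single markers such as Glul and Pdgfra lie nearer the middle (-0.58 and -0.49), and the endothelial median is -0.48.

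The levels of the members were also set against pan-neuronal markers. Each sample was divided by the geometric mean of 10 pan-neuronal markers, which lowered the median log2-fold change of all genes tested by 0.30 for unsorted against intact, 0.12 for MACS-sorted against unsorted and 0.42 for MACS-sorted against intact samples. Atf3, Gadd45a, Sprr1a and Vgf remained higher in MACS-sorted than in intact samples by the test, at 1.99, 0.66, 3.18 and 0.82. Smad1 fell to 0.17 and no longer passed (adjusted p = 0.221). Gap43 went to -0.67 (adjusted p = 0.00313) and was then called lower, of which -0.42 is the shift common to all genes. Csf1 was -0.99 there. Against unsorted samples Gadd45a, Vgf, Sprr1a and Smad1 still passed as higher and Csf1 as lower. Between unsorted and intact samples Gap43 at -0.29 then passed as lower (adjusted p = 0.0379), a value near the common shift of -0.30. Stmn2, also at -0.29, did not pass (adjusted p = 0.0937), and Vgf at 0.19 no longer passed (adjusted p = 0.150). The 10 markers were themselves unequal, as given above, with 5 higher and 3 lower after sorting.

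**Figure D5:**
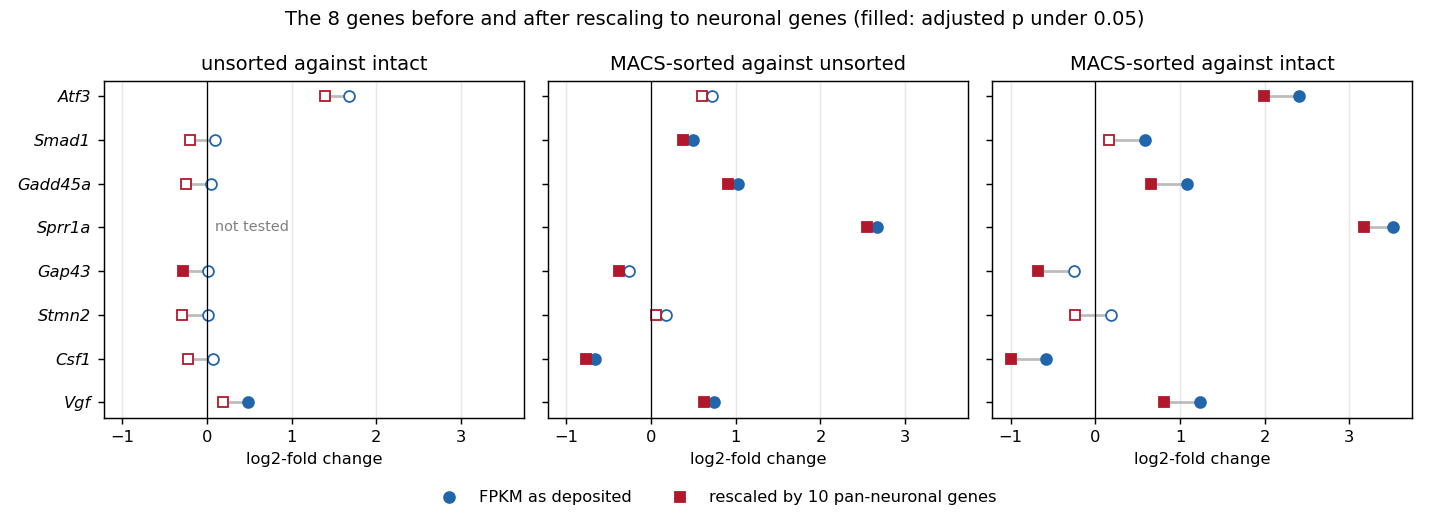
Log2-fold change of each gene (horizontal axis) from the deposited FPKM (circles) and after division by 10 pan-neuronal markers (squares), filled where the adjusted p was under 0.05. Squares lie to the left of the circles in every comparison. Between MACS-sorted and intact samples the squares of Atf3, Gadd45a, Sprr1a and Vgf stay filled and on the right.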

How the data were processed

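The authors sequenced poly(A)-selected RNA as 100-base reads from a directional library kit, aligned the reads to mm10 with TopHat2, used SAMtools, and estimated expression with Cufflinks 2.1.1, per the study's methods and the submitters' processing notes. Each gene has 1 deposited FPKM value for every sample, normalized by the authors to transcript length and mapped fragments, and no read counts were used here. Whether strand was used in counting is not given in the sources used here.

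Tests between groups used limma 3.58.1 (R 4.3.3) with an intensity trend, on log2 values computed here from the deposited FPKM plus a pseudocount of 0.1. Genes with a mean under 1 FPKM over the 8 samples compared were not tested. The paper's criteria on adjusted p, fold change and level were kept, with limma in place of CuffDiff, which needs aligned reads. The procedure was tested on simulated data. Exact permutation tests used scipy 1.17.1.

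All 12 samples were used, grouped by their labels. Depth is not part of the deposited values and was estimated from the spacing of low FPKM values with an assumed fragment length of 150 bases. No interval was drawn from it. Gene positions are those of the deposited table, counted from 1.

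The 8 genes, the gene lists and the tests were chosen with earlier results of these data known. The text names all 8 members, their closest relatives, up to 4 called genes with the largest change in each direction from a list and comparison, and the 3 genes most like a member, measured by the root-mean-square difference of centred log2 profiles over 12 samples among genes averaging 1 FPKM or more. Genes with split values in unsorted samples and Tlx3 and Mrgpra3 were described after their values were seen. Ly6g and Ahsp, on the marker lists, were not analysed here. Also tried were pseudocounts of 1 and 0.01, the low-level filter set to none or to 5 FPKM, 4 rescalings, a fit of all 12 samples, a replicate block, limma without the trend and leaving out each replicate. Averaging unsorted replicates 1 and 2 was added after the data were seen.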

Additional observations from a re-analysis of the deposited data

Results flagged for a closer look

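In intact DRG, replicate 1 stood apart from the other 3 samples for 3 members, by the ratio of its gap to the nearest sample over the range of the group. The ratio was 0.852 for Atf3 and 0.949 for Stmn2, where replicate 1 was the highest, and 0.858 for Vgf, where it was the lowest. Of 24 groups of samples tested (8 genes in 3 groups) these 3 were past the limit, and chance flags about 1 in 20. Without this replicate, MACS-sorted samples differed from intact DRG by a log2-fold change of 2.56 for Atf3, 1.09 for Vgf and 0.27 for Stmn2, and the first 2 still passed the test (limma adjusted p = 1.3e-06 and 0.00165). Intact replicate 1 also had the largest sum of FPKM over all genes of the 12 samples, 345341. Its part in these values was not tested.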

How the results depend on the processing

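Of the values of members under all alternatives, 404 kept their direction and their side of the threshold, 12 passed the threshold only there, 12 lost it and 19 changed sign. Between unsorted and intact samples 1 member was called, in place of 0, under quantile normalization (Atf3, adjusted p = 0.0498), in the fit of all 12 samples (Atf3, 0.0341) and with unsorted replicates 1 and 2 averaged (Atf3, 0.0410). Leaving out 1 replicate gave 0 to 1 members and 579 to 885 genes called, the lowest without unsorted replicate 3, against 873. Rescaling by pan-neuronal markers gave 1783 genes (92 higher and 1691 lower, against 531 and 342) in this comparison and 3902 (200 and 3702, against 922 and 1313) for MACS-sorted against intact samples, with 636 higher and 1844 lower for MACS-sorted against unsorted. Quantile normalization called 4 members for MACS-sorted against unsorted samples, and split the genes called into 421 higher and 408 lower, 1382 and 1285, and 1248 and 1183 in the 3 comparisons, raising the median of all genes by 0.14 for MACS-sorted against unsorted and 0.17 against intact. There Csf1 was -0.29 (adjusted p = 0.0597) and -0.12 (0.483). Vgf, unsorted against intact, lost the threshold under quantile normalization, in the fit of all samples and with averaging (adjusted p from 0.0690 to 0.0737). For MACS-sorted against unsorted samples Stmn2 passed with median-ratio factors (0.24, adjusted p = 0.0355) and without red blood cell genes (0.21, 0.0402), and Gap43 after pan-neuronal rescaling (-0.38, 0.0207). All but 1 of the sign changes were in unsorted against intact samples. Under quantile normalization Gap43 was -0.016 and Stmn2 -0.021, and with averaging -0.012 and -0.0012. After pan-neuronal rescaling Gadd45a was -0.25, Csf1 -0.22, Smad1 -0.20 and Stmn2 -0.29, none past the threshold, and Gap43 was -0.29 and passed as lower (adjusted p = 0.0379). The other sign change was Stmn2 for MACS-sorted against intact samples, at -0.24 (adjusted p = 0.193) after this rescaling. Single omissions gave -0.050 to 0.14 for Gadd45a, -0.019 to 0.058 for Gap43 and -0.023 to 0.098 for Stmn2. The cause was not tested.

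The replicate numbers gave no sign of pairing, with correlations of same-numbered deviations from -0.14 to 0.067. A fit with the replicate number as a block called 899, 2507 and 2229 genes in the 3 comparisons and 0, 2 and 4 members, as without it.

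With FPKM and no counts, the precision rests on 4 samples a group, and the low levels of Sprr1a and Csf1 limit what the criteria can call.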
